A study of Mus musculus with 4 samples.

Results

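Bile acid synthesis and its feedback control were followed through 10 genes in mouse liver, measured by 13 of the 22626 probe sets tested. The genes were chosen by symbol, with every probe set annotated to Cyp7a1, Cyp8b1, Cyp27a1, Cyp7b1, Cyp2c70, Acox2, Amacr, Baat, Nr1h4 or Nr0b2 taken in. All 10 genes had at least 1 probe set, and Cyp7a1, Cyp7b1 and Baat had 2 each. Liver RNA came from 4 wild-type C57/BL6 mice at the age of 1 month. In 2 mice, the starved group, food had been withheld for 24 h, and 2 mice served as controls. No transgene, deletion or other treatment is named in the titles or the treatment field, although the description field calls the starved mice injected and the controls not injected, and what that refers to was not settled. The titles call the samples of a group biological replicates. The p-values below rest on the spread between these mice, combined with a spread estimated over all probe sets.

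Bile acids are made from cholesterol in hepatocytes and serve as detergents for dietary fat. The classic route starts with Cyp7a1 and branches at Cyp8b1 toward cholic acid, while the alternative route starts with Cyp27a1 and Cyp7b1. Rodent liver also forms muricholic acids through Cyp2c70, and peroxisomal enzymes shorten the side chain before Baat joins the product to taurine or glycine. The receptor FXR, encoded by Nr1h4, senses bile acids and induces the repressor SHP, encoded by Nr0b2, which restrains Cyp7a1 and Cyp8b1.

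The split between Cyp7a1 and Cyp8b1 on one side and Cyp2c70 on the other is the main pattern in these genes. Cyp2c70 fell in starved liver, 5.94-fold, and was the 1 probe set of the 13 past the test. Cyp7a1 and Cyp8b1 had signals that were higher on both starved arrays than on both control arrays, by log2 differences of 1.65 to 1.99, without passing the test. Cyp7b1, Acox2, Baat and Nr1h4 had differences below 1 log2 unit with groups that did not overlap, and Cyp27a1, Amacr and Nr0b2 had overlapping groups. Groups without overlap were common on the array, with both starved values higher in 21.3% of all probe sets and lower in 20.6%.

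Values are log2 signals of RMA, a method that gives 1 summary per probe set, and every difference is starved minus control on that scale. The test was limma's moderated test on all 22626 probe sets, two-sided, with the Benjamini-Hochberg adjustment over all of them and a threshold of 0.05 on the adjusted p. It called 13 probe sets in all, 0.0575% of those tested, and of these 4 rose and 9 fell. That count was 57 without control replicate 1 and 2 without starved replicate 1. Leaving out an array left its group with 1 array, so the spread between mice then came from the other group alone. That spread was still combined with the one over all probe sets, and the lone array was assumed to vary like it. A permutation of 2 against 2 arrays cannot give a two-sided p below 0.333. The number of arrays limits the precision, and the median standard error of a log2 difference was 0.13.

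The 4 arrays had medians of 6.70 to 6.73, and their pairwise Pearson correlations over all probe sets, which are not independent of each other, ran from 0.986 to 0.994. The hepatocyte markers Alb, Ttr, Apoa1, Apob, Tat and Asgr1 averaged 14.1 to 14.3 on every array, as the labelled tissue would have. Of 6 measured cholangiocyte markers, the defining Krt19, Krt7 and Epcam read 4.45 to 5.85, below the median of every array. The other 3 did not: Slc4a2 read 7.05 to 7.21, above every array's median, Slc10a2 read 6.99 on control replicate 1 and Sox9 6.89 on starved replicate 2. Control replicate 2 stood apart in 10 acute phase genes, with a mean log2 signal of 14.15 against 12.05 to 12.22 on the other arrays. For beta-actin, the 3′ control probe set read above the 5′ one, as it does more strongly in degraded RNA, by 2.06 on starved replicate 1 and by 1.76 to 1.85 on the other arrays. In bulk RNA, fewer cells of a type and less RNA per cell cannot be told apart.

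**Figure D1:**
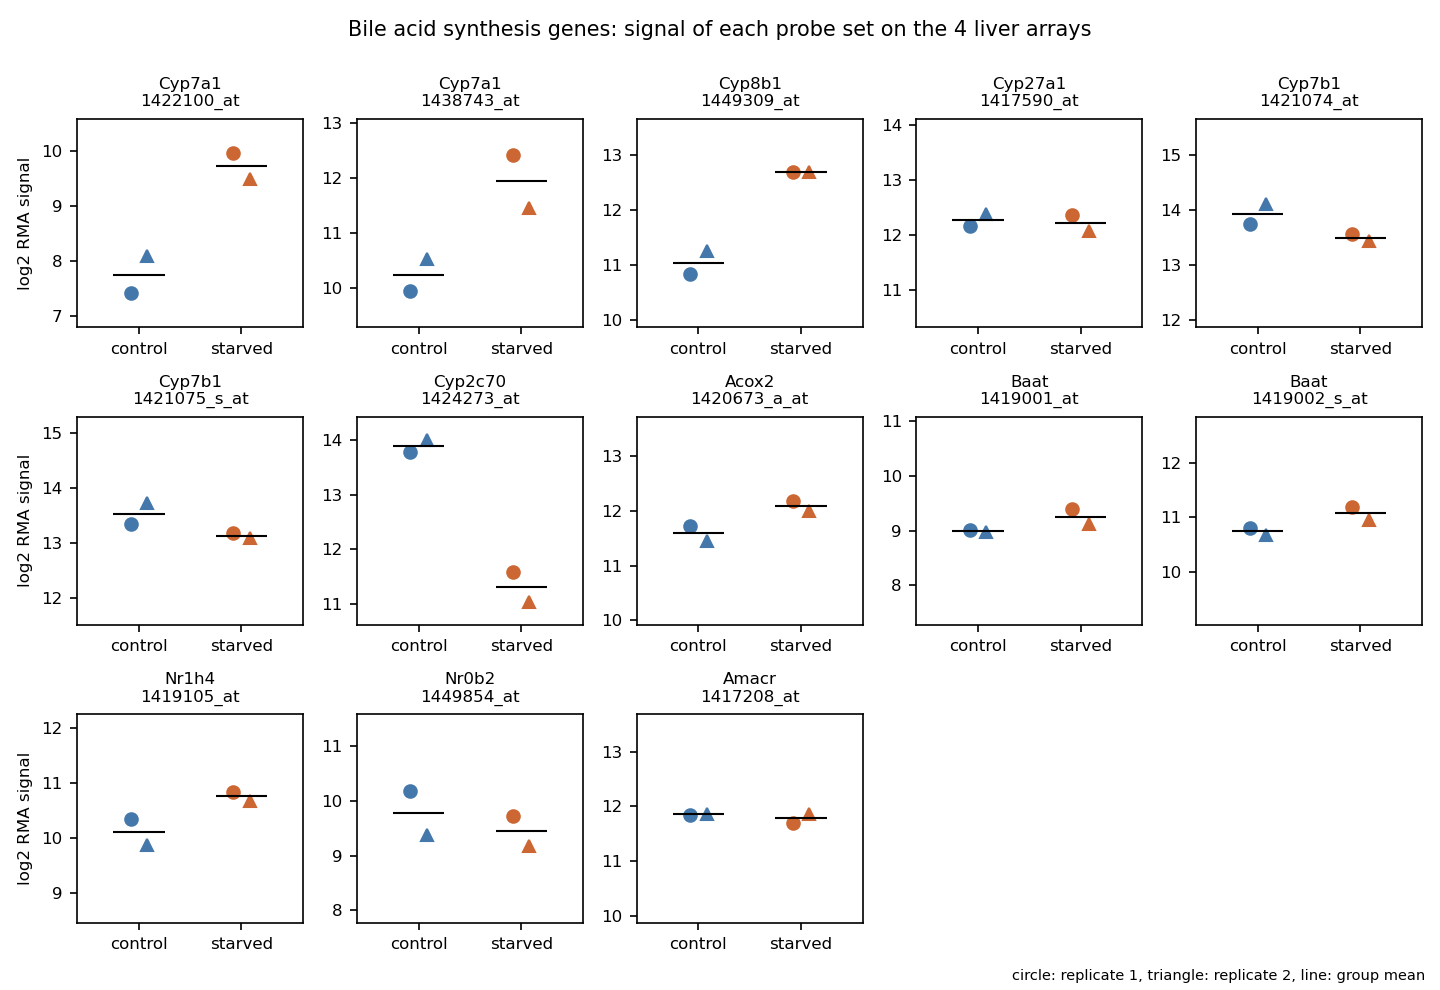
Log2 RMA signal of the 13 probe sets on the 4 arrays, with circles for replicate 1, triangles for replicate 2 and a line at each group mean; every panel spans the same number of log2 units, and levels are not comparable between panels. Cyp2c70 drops from near 14 to near 11 while both Cyp7a1 probe sets and Cyp8b1 sit higher on the starved arrays.

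Cyp7a1 encodes the cholesterol hydroxylase whose activity limits the classic route. Its probe set 1422100_at read 7.41 and 8.10 on the control arrays and 9.98 and 9.50 on the starved arrays. Both starved values lay above both control values, and the smallest of the 4 array-to-array differences was 1.41. The group means were 7.76 ± 0.48 and 9.74 ± 0.34 (SD, n = 2 each), a difference of 1.99 ± 0.27 (SE) with a 95% interval of 1.33 to 2.65. The second probe set, 1438743_at, read 9.94 and 10.53 on the controls and 12.43 and 11.45 on the starved arrays. Its difference was 1.71 ± 0.35 (SE), with a 95% interval of 0.84 to 2.57. The Cyp7a1 probe sets thus gave the same order of arrays, with starved replicate 1 highest and control replicate 1 lowest in both. In limma the adjusted p was 0.0899 for 1422100_at and 0.183 for 1438743_at, neither past the threshold.

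Cyp8b1 encodes the sterol hydroxylase that commits intermediates to cholic acid. Its single probe set read 10.84 and 11.24 on the control arrays and 12.69 on each starved array. The starved mice differed by 0.0044, the controls by 0.41, and the nearest starved and control values by 1.44. The difference in means was 1.65 ± 0.16 (SE), 3.14-fold, with a 95% interval of 1.25 to 2.05. The limma adjusted p was 0.0567, short of the threshold. In other limma settings the adjusted p fell on either side: 0.0342 with trend and robust variance settings and 0.0499 with the _x_at and _s_at probe sets removed, but 0.0727 with a further quantile normalization. With 1 array left out the limma adjusted p was 0.280 without starved replicate 1, 0.142 without starved replicate 2, 0.0509 without control replicate 1 and 0.0484 without control replicate 2. In the last pair the spread between mice came from the starved arrays alone, which were 0.0044 apart. It was combined with the spread over all probe sets, and the lone control's own was unmeasured. The pass without control replicate 2 thus adds no support.

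Cyp2c70 encodes the enzyme of rodent liver that turns chenodeoxycholic and ursodeoxycholic acid into muricholic acids. It read 13.77 and 14.00 on the control arrays and 11.58 and 11.05 on the starved arrays. The controls lay 0.23 apart, the starved mice 0.54, and every starved value was at least 2.19 log2 units below every control value. The means were 13.89 ± 0.16 and 11.31 ± 0.38 (SD, n = 2 each), so Cyp2c70 fell by 2.57 ± 0.20 (SE) on the log2 scale. The 95% interval of -3.07 to -2.07 corresponds to 4.20-fold to 8.41-fold lower signal, with a limma adjusted p = 0.0379. The call was lost without control replicate 2 (adjusted p = 0.0785, limma), without starved replicate 1 (adjusted p = 0.133, limma) and without starved replicate 2 (adjusted p = 0.0597, limma). The difference itself stayed between -2.84 and -2.30 in these fits. By signed difference, 10 probe sets of the array had lower values than Cyp2c70. The Cyp2c family has many closely related members, and the probe set may take up signal from them.

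The start-site windows of Cyp8b1, Cyp2c70 and Nr0b2 are printed because the first pair holds the largest opposite differences with a window on file and the third is the repressor of the feedback loop. Each is the 250 bases before the RefSeq start site on GRCm38.p6, 5′ to 3′ on the gene's strand, with motif matches in capitals. Cyp8b1 lies at chr9:121916306-121916555 (minus strand), Cyp2c70 at chr19:40187287-40187536 (minus strand) and Nr0b2 at chr4:133553126-133553375 (plus strand).
Cyp8b1: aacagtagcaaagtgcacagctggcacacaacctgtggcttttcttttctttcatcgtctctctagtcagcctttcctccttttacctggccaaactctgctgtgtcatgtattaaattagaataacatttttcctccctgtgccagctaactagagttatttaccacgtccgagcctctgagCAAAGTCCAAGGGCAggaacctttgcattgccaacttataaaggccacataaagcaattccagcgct
Cyp2c70: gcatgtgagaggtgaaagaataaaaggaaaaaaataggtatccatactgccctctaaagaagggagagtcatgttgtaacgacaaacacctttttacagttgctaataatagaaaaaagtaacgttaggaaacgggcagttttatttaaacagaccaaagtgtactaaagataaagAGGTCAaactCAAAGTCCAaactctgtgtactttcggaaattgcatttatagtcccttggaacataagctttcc
Nr0b2: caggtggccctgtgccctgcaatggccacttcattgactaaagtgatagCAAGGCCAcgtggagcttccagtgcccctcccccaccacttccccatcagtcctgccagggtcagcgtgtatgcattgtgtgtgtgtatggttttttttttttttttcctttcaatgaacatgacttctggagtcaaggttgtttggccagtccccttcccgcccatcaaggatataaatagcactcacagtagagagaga

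Both Cyp8b1 and Cyp2c70 held the letters CAAAGTCCA, a core that HNF4 proteins are known to recognise, and they held them at nearly the same distance from the start. The match began 67 bases upstream in Cyp8b1 and 64 bases upstream in Cyp2c70. This motif was added after the windows were read. On both strands it occurred in 126 of 32851 such windows, 0.384%. In Cyp8b1 it overlapped by 2 bases with CAAGGGCA, a match to the NR5A type motif CAAGGNCA, which LRH-1 is known to bind and which 5.53% of windows held. Nr0b2 held another match to that motif, CAAGGCCA, from 201 to 194 bases upstream. In Cyp2c70 the nuclear receptor hexamer AGGTCA stood at 74 to 69 bases upstream, and 14% of windows held that motif. A match is a description of letters and not a site in use.

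RefSeq windows matched 6 of the 10 genes, 7 windows in all, since Acox2 has 2 start sites. Nr1h4 held 1 such hexamer on the opposite strand, read as TGACCT, from 214 to 209 bases upstream. Cyp27a1 held TTATGAAA, a match to the PAR bZIP motif TTATGNAA found in 3.07% of windows. The Acox2 windows held none of the motifs searched. The forkhead motif GTAAACA, held by 3.17% of all windows, was in none of the 7. The hexamer as a direct repeat with 1 base between (0.0335% of windows) or as an inverted repeat with 1 base between (0.00609%), the arrangement FXR with RXR is known for, was also in none of them. Only exact letters within 250 bases were searched, so sites with other letters or farther upstream were not covered.

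The alternative route showed smaller differences or none that could be resolved. Cyp27a1, the mitochondrial enzyme that oxidises the cholesterol side chain, read 12.16 and 12.38 on the controls and 12.36 and 12.07 on the starved arrays. Its groups overlapped, and the difference was -0.06 ± 0.15 (SE) with a 95% interval of -0.44 to 0.32. Cyp7b1, the oxysterol hydroxylase of that route, read 13.74 and 14.10 on the controls and 13.57 and 13.43 on the starved arrays with probe set 1421074_at. The second Cyp7b1 probe set, 1421075_s_at, read 13.34 and 13.73 against 13.18 and 13.09. The Cyp7b1 differences were -0.42 ± 0.16 and -0.40 ± 0.16 (SE), with limma adjusted p = 0.402 and 0.430. Each starved value lay below both control values, but by as little as 0.18 and 0.16, which was less than the 0.36 and 0.39 between the control mice. Cyp7b1 is known to be higher in male than in female mouse liver. The sex of the mice is not in the labels. Xist read 3.77 to 5.83, below the median of every array. The Y-linked Eif2s3y read 9.27 to 9.91, above the median of each of the 4 arrays, with overlapping groups. Kdm5d and Uty, also Y-linked, read 6.86 to 7.27 and 7.05 to 7.52 in their brightest probe sets, above every median too. By these genes all 4 mice read as male.

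**Figure D2:**
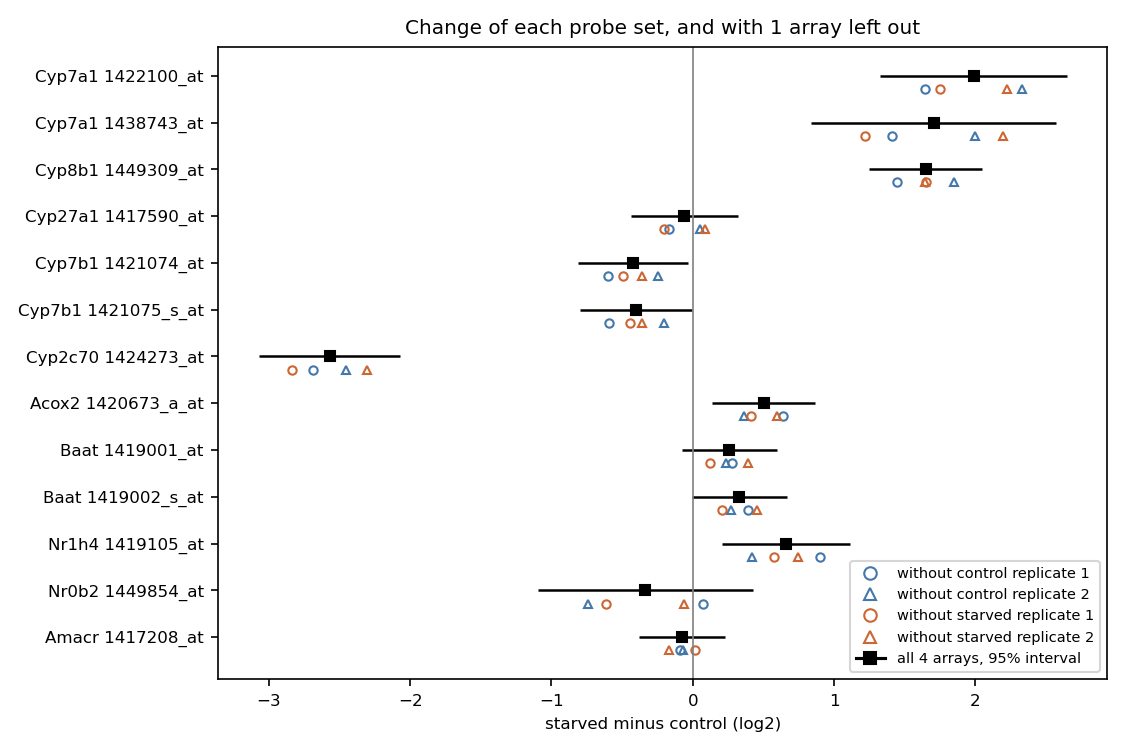
Starved minus control difference (log2) of each probe set, with black squares and lines for all 4 arrays and their 95% interval, and open symbols for the fits with 1 array left out. Cyp2c70 stays between -2.84 and -2.30 and Cyp8b1 between 1.44 and 1.85, whereas Cyp27a1, Nr0b2 and Amacr cross 0.

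Side-chain shortening and conjugation were represented by Amacr, Acox2 and Baat. Amacr, the racemase that prepares the side chain for oxidation, read 11.85 and 11.87 on the controls and 11.69 and 11.87 on the starved arrays. The Amacr groups overlapped, and the 95% interval of the difference ran from -0.38 to 0.23. Acox2, the peroxisomal oxidase of bile acid intermediates, read 11.73 and 11.45 on the controls and 12.19 and 12.00 on the starved arrays. Its difference was 0.50 ± 0.15 (SE), with a limma adjusted p = 0.303. Baat, the enzyme that attaches the amino acid, had differences of 0.26 ± 0.14 (SE) with 1419001_at and 0.33 ± 0.14 with 1419002_s_at. The Baat values were 9.02 and 8.98 against 9.39 and 9.12 with the first, and 10.81 and 10.68 against 11.20 and 10.95 with the second. Both Acox2 and Baat thus read higher on each starved array than on either control array, as 21.3% of all probe sets did. Neither passed the test (limma, adjusted p = 0.442 to 0.540 for Baat).

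The 2 nuclear receptors of the feedback loop did not show the same order of arrays. Nr1h4 (FXR) read 10.34 and 9.87 on the controls and 10.85 and 10.68 on the starved arrays, a difference of 0.66 ± 0.18 (SE) with a 95% interval of 0.20 to 1.11. Its limma adjusted p was 0.288. Nr0b2 (SHP) read 10.19 and 9.37 on the controls and 9.72 and 9.17 on the starved arrays. The control mice differed in Nr0b2 by 0.82, more than the difference of -0.33 ± 0.31 (SE) between the group means. The 95% interval of -1.10 to 0.43 leaves room for a change of 2-fold downward, so the data do not show that Nr0b2 stayed level. Without control replicate 1 the Nr0b2 difference was 0.07, and without control replicate 2 it was -0.74.

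The control mice differed from each other in several of the 10 genes. Control replicate 2, the array with high acute phase signals, read 0.48 lower than control replicate 1 in Nr1h4 and 0.82 lower in Nr0b2. It read 0.59 to 0.68 higher in Cyp7a1 and 0.41 higher in Cyp8b1. Orm2 and Lcn2, acute phase genes of hepatocytes, read 13.79 and 13.49 on that array against 9.34 and 9.35 on control replicate 1. The part of the acute phase signal in these values was not tested. Without control replicate 2 the differences of 1422100_at of Cyp7a1 and of Cyp8b1 were larger, at 2.33 and 1.85, and that of Nr1h4 smaller, at 0.42.

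Counted over the 13 probe sets, 5 had an unadjusted p below 0.05 in limma with higher values in starved liver and 3 with lower values. Over all probe sets the shares were 5.42% and 6.04%. Groups did not overlap in 10 of the 13, with 7 higher and 3 lower, against 21.3% and 20.6% of all probe sets. A difference of at least 2-fold was reached by 3 probe sets upward, both of Cyp7a1 and that of Cyp8b1, and by Cyp2c70 downward, against 0.499% and 0.659% of all probe sets. The median difference of the 13 was 0.26, against 0.0028 over all. These probe sets are not independent, since 3 of the genes are counted with 2 each.

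**Figure D3:**
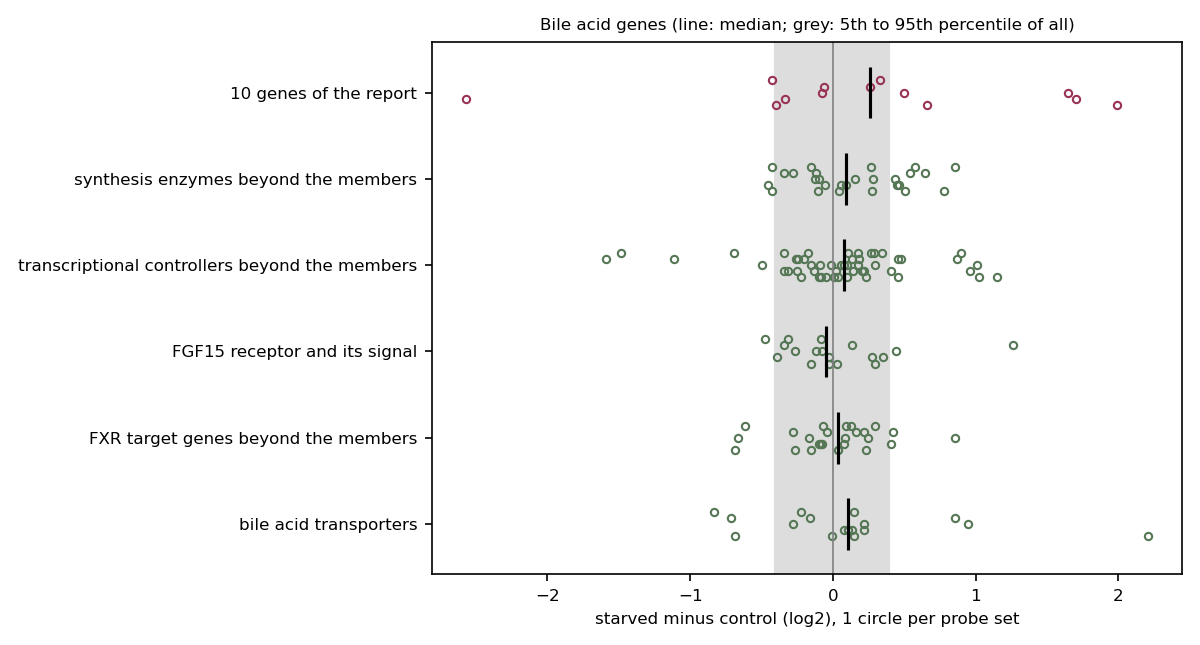
Starved minus control difference (log2) of every probe set of the 10 genes and of 5 lists of related genes, with a line at each median and a grey band from the 5th to the 95th percentile of all 22626 probe sets (-0.41 to 0.39). The medians of the 5 lists lie between -0.05 and 0.11, and single probe sets of these lists reach 2.21 upward and -1.59 downward, while Cyp2c70 among the 10 genes lies at -2.57.

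Other enzymes of the pathway were covered by 27 probe sets of 19 genes. Limma called 0 of them, and at an unadjusted p below 0.05 there were 7 higher and 2 lower. Over all probe sets, 5.42% were higher and 6.04% lower at that limit, and 0.0575% were called. The median difference was 0.09. With each gene taken by its brightest probe set, the 4 genes with the smallest p had higher values in starved liver. A dimmer probe set of Star, a cholesterol carrier of mitochondria, had a similar p and a difference of -0.46 ± 0.12 (SE) from signals of 4.76 to 5.34, and the other probe sets of Star had -0.10 and 0.27. Hsd17b4, the bifunctional enzyme that carries out the next peroxisomal steps after Acox2, read 12.31 and 12.07 on the controls and 12.70 and 12.84 on the starved arrays. Its difference was 0.58 ± 0.14 (SE). Acot8, a peroxisomal thioesterase that can release the shortened bile acid, had a difference of 0.54 ± 0.14, and Slc27a2, an acyl-CoA synthetase that activates the side chain, one of 0.44 ± 0.12. Cyp3a11, a drug oxidase that also hydroxylates bile acids, had one of 0.65 ± 0.14. The limma adjusted p of these 4 genes lay between 0.198 and 0.269. Peroxisomal steps of fatty acid breakdown share Hsd17b4 and Acot8.

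Transcriptional controllers were covered by 51 probe sets of 26 genes, with 0 called by limma and 6 higher and 5 lower at an unadjusted p below 0.05. The shares of all probe sets at that limit were 5.42% and 6.04%. Their median difference was 0.08. Nr5a2, which encodes LRH-1, the activator that SHP opposes on Cyp7a1 and Cyp8b1, read 10.02 and 9.93 on the controls and 10.19 and 10.03 on the starved arrays with its brightest probe set. Hnf4a encodes the hepatocyte factor that activates both genes. Its brightest probe set had a difference of 0.21 ± 0.14 (SE) with overlapping groups, and the dimmer ones had 0.11, -0.10 and -0.01. Nr1h3, the oxysterol receptor that induces Cyp7a1 in mice, had -0.20 ± 0.12, and Prox1, a corepressor at Cyp7a1, had 0.29 ± 0.12 from signals of 5.21 to 5.60. The limma adjusted p of Nr5a2, Hnf4a, Nr1h3 and Prox1 lay between 0.453 and 0.757.

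By smallest p among the controllers, each taken by its brightest probe set, Nr1i3 came first. A dim probe set of the glucocorticoid receptor gene Nr3c1, reading 4.28 to 5.13, had a smaller p, with a difference of -0.69 ± 0.14 (SE), and the brightest one of Nr3c1 had -0.25 ± 0.13. Nr1i3 encodes the xenobiotic receptor CAR, which protects against bile acids, and it read 9.33 and 8.52 on the controls and 10.05 and 10.10 on the starved arrays. Its difference was 1.15 ± 0.26 (SE), with a limma adjusted p = 0.218. Without control replicate 1 it passed the test, but that fit sets the starved arrays against control replicate 2 alone, the lower of the controls. Foxo1, a factor restrained by insulin, had a difference of 0.46 ± 0.12, the clock repressor Nfil3 one of 0.48 ± 0.16 and the clock repressor Bhlhe40 one of -1.12 ± 0.35. Bhlhe40 read 8.90 on starved replicate 1 and 10.05 on starved replicate 2, against 10.61 and 10.56 on the controls.

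Chosen after their values were seen, Ppargc1a, Onecut1 and Dbp stood out by their spread between mice of a group. Ppargc1a encodes a coactivator that is induced in fasting liver and can raise Cyp7a1 transcription. Its brightest probe set read 8.09 and 8.31 on the controls and 9.85 and 8.57 on the starved arrays, a difference of 1.01 ± 0.40 (SE). The dimmer ones had 0.87 to 1.02, and the limma adjusted p of all lay between 0.297 and 0.458. A relation between Ppargc1a and Cyp7a1 was not tested. Onecut1, which encodes the liver factor HNF6, read 8.56 and 10.21 on the controls and 7.44 and 8.36 on the starved arrays. The difference was -1.48 ± 0.56 (SE), and that of its dimmer probe set -1.59 ± 0.58, with limma adjusted p = 0.411 and 0.394. Dbp, a clock activator of Cyp7a1, read 11.98 and 10.34 on the controls and 10.78 and 11.73 on the starved arrays, so the groups interleaved. The part of the time of day at which tissue was taken was not tested.

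**Figure D4:**
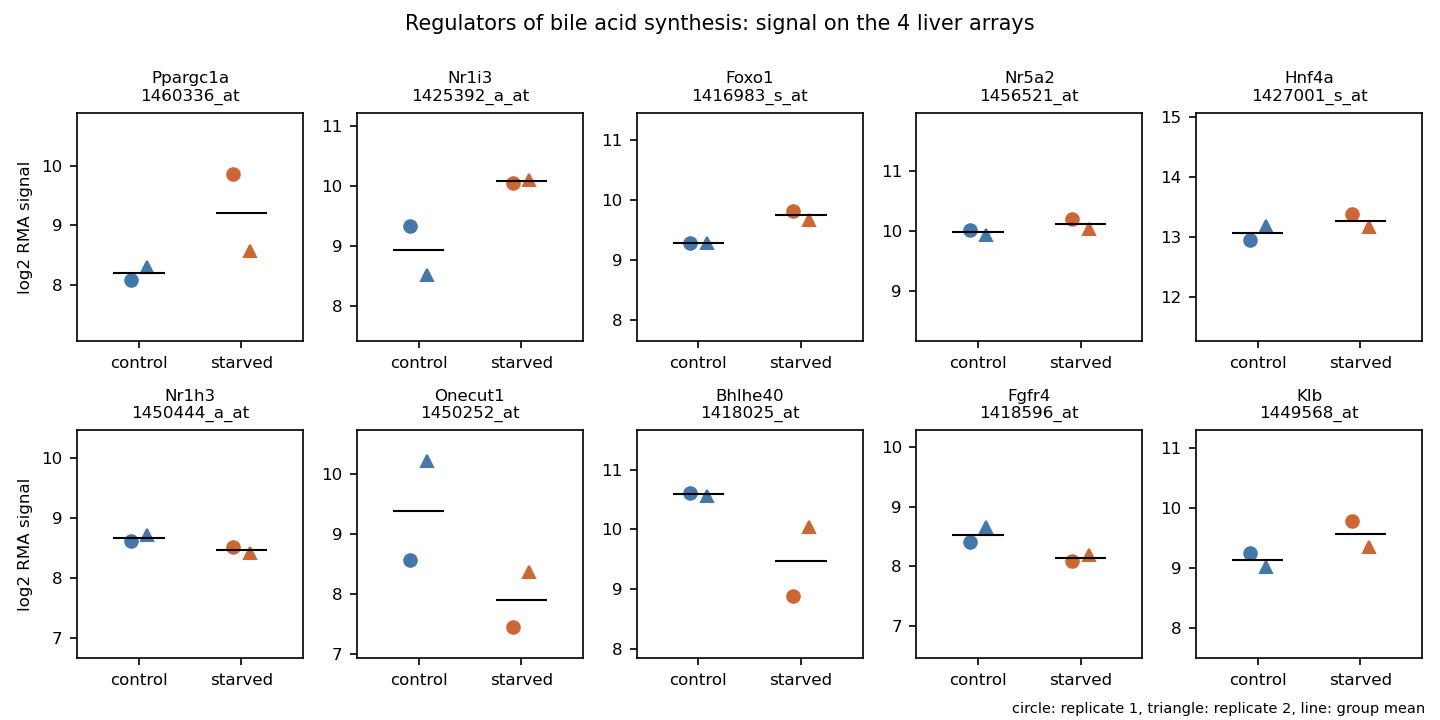
Log2 RMA signal of 10 regulators on the 4 arrays, with circles for replicate 1, triangles for replicate 2 and a line at each group mean; panels span the same number of log2 units. Nr5a2, Hnf4a and Nr1h3 differ by -0.20 to 0.21 between group means, and Nr1i3 and Foxo1 sit higher on both starved arrays. Ppargc1a sits higher and Onecut1 lower on both starved arrays, and both vary between mice of a group.

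The intestinal hormone FGF15 restrains Cyp7a1 through the hepatocyte receptor Fgfr4 and its partner Klb. Its own transcript, Fgf15, which is made in the ileum, read 5.38 to 5.74 on the 4 arrays, below the median of each. The brightest probe set of Fgfr4 read 8.41 and 8.65 on the controls and 8.09 and 8.19 on the starved arrays, a difference of -0.39 ± 0.14 (SE). Dimmer ones of Fgfr4 had -0.34, -0.27, -0.08 and -0.02, the last pair with overlapping groups. Klb read 9.25 and 9.02 on the controls and 9.79 and 9.36 on the starved arrays, a difference of 0.44 ± 0.18, and its dimmer probe set had 0.27. The receptor and its partner thus had differences of opposite sign, and neither passed the test (limma, adjusted p = 0.370 and 0.437 for the brightest probe sets). The fasting hormone Fgf21, which also signals through Klb, read 5.83 and 5.94 on the controls and 6.31 and 7.98 on the starved arrays. Mapk8, a kinase of this signal, had a difference of 0.30 ± 0.12 in its brightest probe set and 0.35 ± 0.21 in another. The dimmest one, reading 4.81 to 5.29, had -0.31 ± 0.15, so the direction of Mapk8 was not settled. Of 18 probe sets of 8 genes on this list limma called 0, and at an unadjusted p below 0.05 there were 2 higher and 3 lower. Among all probe sets these shares were 5.42% and 6.04%.

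Genes that FXR is known to induce or regulate did not share a direction. Of 25 probe sets of 15 genes limma called 0, with 1 higher and 3 lower at an unadjusted p below 0.05 and a median of 0.03. At that limit 5.42% of all probe sets were higher and 6.04% lower. Abcb11, the bile salt export pump and a direct FXR target, read 12.16 and 12.36 on the controls and 11.72 and 11.42 on the starved arrays, a difference of -0.69 ± 0.15 (SE). Abcb4, the phospholipid exporter of the same membrane, read 11.56 and 11.66 against 12.47 on both starved arrays, a difference of 0.86 ± 0.11. Abcb11 and Abcb4 thus had opposite signs, with limma adjusted p = 0.208 and 0.0893. Mafg, a repressor that FXR induces, had a difference of 0.41 ± 0.17, and Pklr, the liver pyruvate kinase, one of -0.62 ± 0.19. Slc51a, an export subunit on the sinusoidal side, read 4.36 to 4.55 and showed no resolvable difference.

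Transporters of bile acids were covered by 17 probe sets of 11 genes, 0 of them called by limma, with 2 higher and 3 lower at an unadjusted p below 0.05. The whole array had 5.42% higher and 6.04% lower at that limit. The sodium-dependent uptake carrier Slc10a1 had differences of 0.14 and 0.22 in its 2 probe sets. Slco1a1, an organic anion carrier, read 12.77 and 12.79 on the controls and 11.87 and 12.26 on the starved arrays. Its relative Slco1a4 read 8.47 and 7.61 on the controls and 10.97 and 9.52 on the starved arrays, a difference of 2.21 ± 0.50 (SE) with a limma adjusted p = 0.218. The sterol exporters Abcg5 and Abcg8 had differences of 0.15 each. Chosen after its values were seen, the exporter Abcc3 read 9.96 or more on 3 arrays and 8.10 on control replicate 2, so the groups overlapped, with a limma adjusted p = 0.593. It passed the test without control replicate 1, a fit in which that low array is the whole control group.

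Cyp7a1, Cyp8b1 and Cyp2c70 had the largest differences of the 10 genes, and the genes nearest to each by profile were read out. Likeness was the Euclidean distance between mean-centred log2 values over 4 arrays, taken over 12393 genes. Nearest to Cyp2c70 were Fabp5, a fatty acid binding protein, with a distance of 0.78, and the cholesterol synthesis enzymes Nsdhl and Dhcr7, with 0.82 and 0.85. Fabp5 read 11.85 and 12.89 on the controls and 9.83 and 10.01 on the starved arrays. Nearest to Cyp7a1 were the apolipoprotein Apoa4 (0.40), the endothelial receptor Lyve1 (0.43) and the serpin Serpinb6b (0.49). Nearest to Cyp8b1 were Mndal (0.42), Vnn3, a vanin (0.42), and the RNA gene Snhg1 (0.44). With 4 arrays many genes have similar profiles, so nearness here describes these values only.

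Zonation and cell type markers were read beside the 10 genes, since several of the enzymes are known to differ across the liver lobule. The 7 pericentral hepatocyte markers averaged 10.56 to 10.72 on the 4 arrays, and the 4 periportal ones 12.49 and 12.65 on the controls and 12.54 and 12.08 on the starved arrays. Cyp1a2, a pericentral oxidase, read 13.09 and 12.99 on the controls and 11.81 and 12.05 on the starved arrays, while the pericentral Glul, with its brighter probe set, read 12.47 to 12.69. Oat, Slc1a2 and Cyp2e1 of the same list had differences of 0.43, 0.40 and 0.13. Lgr5 and the brighter probe set of Axin2 had -0.27 and -0.08, so the pericentral markers did not share a direction. Of the 6 cholangiocyte markers the list averaged 5.96 to 6.05 on the controls and 5.90 to 6.12 on the starved arrays. Within it Sox9 had differences of 0.48 ± 0.17 and 0.71 ± 0.17 (SE) in its probe sets and Slc10a2, a bile acid uptake carrier, one of -0.63 ± 0.18. Of 5 intestinal markers, averaging 6.22 to 6.37 on the controls and 6.72 to 6.76 on the starved arrays, Vil1 and Fabp6 read 3.32 to 4.71. The intestinal Fabp2 and Lgals4, the former also expressed in hepatocytes, read 1.10 and 1.27 higher in starved liver. Limma called 0 probe sets of these 4 lists, with 5 higher and 2 lower at an unadjusted p below 0.05. The pericentral, periportal, cholangiocyte and intestinal lists had 9, 5, 7 and 6 probe sets. Shares over all probe sets were 5.42% higher and 6.04% lower. The part of these lists in the results was not tested.

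The remaining cell type lists had mean signals that overlapped between the groups, except pancreas. Their mean log2 signals were 8.79 to 9.09 for Kupffer cells and macrophages, 7.33 to 8.06 for sinusoidal endothelium and 7.68 to 8.34 for stellate cells and fibroblasts. They were 6.70 to 6.88 for lymphocytes and 5.71 to 6.79 for neutrophils. Single genes departed from their lists. The endothelial Lyve1 had differences of 1.81 ± 0.28 and 1.09 ± 0.17 (SE) in its probe sets, while the brightest ones of Stab2, Clec4g, Kdr and Pecam1 had -0.33 to -0.03. The stellate marker Col3a1 had -1.53 ± 0.24 in its brightest probe set, against -0.45 to 0.31 for the others. Marco had 0.70 ± 0.19, against -0.17 to -0.05 for the other Kupffer cell and macrophage genes. For pancreas they were 7.26 to 7.45 on the controls and 6.93 to 7.14 on the starved arrays. Cela1, an elastase, carried that gap, with a difference of -1.31 ± 0.15 (SE; limma adjusted p = 0.0672), whereas Prss2, Ctrb1 and Cpa1 had 0.09, -0.04 and -0.03 in their brightest probe sets. Limma called 0 probe sets of these 6 lists, of the hepatocyte and acute phase lists and of the sex lists. At an unadjusted p below 0.05 the 6 lists, of 4 to 15 probe sets each, held 3 higher and 2 lower. The acute phase list held 4 lower of 12 and the hepatocyte list 0 of 11. Shares over all probe sets were 5.42% higher and 6.04% lower. Of 6 measured genes known to differ between male and female liver, Hsd3b5, a male-biased steroid dehydrogenase, read 12.61 and 12.98 on the controls and 9.93 and 11.69 on the starved arrays. Of the 7 probe sets on that list, 1 was higher and 3 were lower at the same limit. The higher one was Cyp2d9, with a difference of 0.44 ± 0.15 (SE), and the lower ones were that of Hsd3b5 and both of Slco1a1. Elovl3, Cyp2b9 and Cyp17a1 had overlapping groups, so the list did not share a direction. The part of this list in the Cyp7b1 values was not tested.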

How the data were processed

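Liver RNA of 4 mice was measured on an Affymetrix array. The authors deposited log2 signals made with RMA in affy, per the submitters' processing notes. Their versions and settings, and any other arrays normalized along with these, are not given in the sources used. Quantile normalization in RMA hides any shift common to all transcripts, and without detection calls a low signal is not taken as absence.

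From the 22690 probe sets, 64 Affymetrix controls were left out. Of the other 22626, 20380 had 1 gene symbol in the platform annotation, 691 several and 1555 none, and only the first were named. Symbols were updated by Entrez identifier through RefSeq's GRCm38.p6 gene table (20351 matched). No other filter was applied. The comparison of groups ran in limma 3.58.1 (lmFit, then eBayes, in R 4.3.3) with no covariate and the Benjamini-Hochberg adjustment over all probe sets. Total degrees of freedom were 5.83, of which 3.83 came from the spread estimated over all probe sets. Promoter sequences came from RefSeq, GRCm38.p6. The limma step was tested on simulated data.

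The 10 genes, the 5 lists of related genes and the 14 marker lists were chosen with earlier results of these data known. From each list the 4 genes with the smallest p (brightest probe set) were named, with 6 known regulators of Cyp7a1 or Cyp8b1. Alternatives were another scaling, a filter on the dimmest 40%, 1 value per gene, removal of _x_at and _s_at probe sets, trend and robust variance settings, the replicate number as a block, leaving out any 1 array and stricter thresholds.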

Additional observations from a re-analysis of the deposited data

How the results depend on the processing

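The count of 13 probe sets called over the whole array became 8 with 1 probe set per gene, 23 without _x_at and _s_at probe sets and 59 with trend and robust settings. It was 0 at an adjusted p below 0.01, and 2 to 57 with 1 array left out. Of the 13 probe sets of bile acid genes, 2 were called without _x_at and _s_at probe sets and with trend and robust settings (Cyp2c70 and Cyp8b1), 0 at an adjusted p below 0.01, and 0 to 1 with 1 array left out. The 1 called without control replicate 2 was Cyp8b1, not Cyp2c70. With the replicate block both counts were 0. Cyp2c70 then kept its difference of -2.57 with an adjusted p = 0.146 in limma, against 0.147 for Cyp8b1. Over all probe sets, same-numbered arrays had deviations that correlated at 0.04. With 2 arrays per group, that value cannot decide whether same-numbered samples share a day or batch, and the titles give only a number. Cyp8b1 was at 1.65 in both settings on all 4 arrays that called it. With 1 array left out Cyp8b1 ranged from 1.44 to 1.85, and Cyp2c70 from -2.84 to -2.30. Differences near 0 changed sign in such fits: Cyp27a1 ran from -0.20 to 0.087, Nr0b2 from -0.74 to 0.073 and Amacr from -0.17 to 0.013. The other genes of the 10 kept their direction in every alternative that gave a value, without a call. The lists of controllers and of transporters had 0 to 1 probe sets called with 1 array left out, Nr1i3 and Abcc3 without control replicate 1, where control replicate 2 alone stood for the controls; the other 3 lists of related genes had 0, and the marker lists were not run under the alternatives. Cyp2c70 kept its call under both other scalings, the filter and both values per gene. The cause of these shifts was not tested.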
